A study of Mus musculus with 24 samples.

Results

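Reference genes, also called housekeeping genes, are transcripts that are divided into the signal of a target gene so that differences in input and efficiency cancel. The 7 examined here, Actb, Ppia, Ywhaz, Sdha, Hprt, Gusb and Tbp, were chosen by symbol from the deposited count table of 33000 genes, of which 20629 had at least 1 count, and each symbol matched 1 row. They are in common use in quantitative PCR of brain and other tissues because cells of most types transcribe them for basic functions, such as the cytoskeleton, protein folding, nucleotide salvage and respiration. A useful reference changes neither with the condition studied nor with the handling of the sample, and several of them together are usually preferred to a single one.

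Frontal cortex RNA was read in 24 libraries made by 3'Pool-seq. In 3'Pool-seq, RNA is reverse transcribed from the polyA tail with an indexed primer, samples are pooled and amplified, and the cDNA is cut by tagmentation, so that reads lie toward the 3' end of each mRNA. The mice were 3 wild-type (WT) C57BL/6 and 3 homozygous GFAP-IL6 animals, all aged 3 months, and the latter carry an interleukin 6 transgene driven in astrocytes by the Gfap promoter. Each mouse gave 4 libraries, with 2 ng or 1 ng of cDNA in the tagmentation reaction in a set A and a set B, whose difference the labels leave unnamed. The mouse was therefore the replicate for genotype. The 4 combinations of amount and set, each with 6 libraries, are called preparations below. In the paper's protocol amplification and tagmentation act on pools of samples, so the libraries of a preparation may share a reaction. The sample titles name no pool. Tests between amounts or sets therefore compare these preparations, and amount or set cannot be told apart from variation between pooled reactions.

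Library totals ran from 1524165 to 12256374 counts. In both sets the 2 ng libraries were shallower than the 1 ng libraries, with medians of 3845216 against 4600064 counts in set A and 3943611.5 against 6278426 counts in set B. WT mouse 3 was the shallowest mouse, with 7852743 counts over its 4 libraries against 37582644 for GFAP-IL6 mouse 3. As a check of the tissue, neuron markers were at a summed level of 6666 to 7354 CPM in WT mice and 6245 to 6936 CPM in GFAP-IL6 mice. Microglia and macrophage markers summed to 349 to 379 CPM in WT and 636 to 836 CPM in GFAP-IL6 mice, and 7 of the 8 were higher in GFAP-IL6 by the edgeR test described below. Choroid plexus markers reached 4079 CPM in 1 WT mouse against 108 CPM in the lowest WT mouse.

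Because 3'Pool-seq reads the ends of transcripts, the annotated end of each reference gene is shown first. Each line gives the last 30 bases of the longest principal transcript in GENCODE vM21 on mm10, 5′ to 3′ on the strand of the gene, with every copy of the polyadenylation signal AATAAA in capitals. In Hprt 2 copies overlap.
Actb, chr5:142903115-142903144, minus strand: taaaagtgcacaccttaccttacacaaaca
Ppia, chr11:6419788-6419817, plus strand: attatgAATAAAaactaaataagaactgtt
Ywhaz, chr15:36770770-36770799, minus strand: gtaaatgctcAATAAAtattgatgatggga
Sdha, chr13:74322254-74322283, minus strand: tgtaagccaAATAAAccctttctcaaagtt
Hprt, chrX:53021630-53021659, plus strand: ttaaatgcaAATAAATAAAttctaaaaatt
Gusb, chr5:129989011-129989040, minus strand: gcaaAATAAAaatgaatctaaaaaaaaaaa
Tbp, chr17:15528350-15528379, plus strand: ggttaactAATAAAactttttgactttgaa

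The sense strand of this window held AATAAA in 6 of the 7 genes, the exception being Actb, and in 51.21% of 21660 protein-coding genes. The genes themselves lie at chr5:142903115-142906754 (Actb), chr11:6415443-6419817 (Ppia), chr15:36770770-36796929 (Ywhaz), chr13:74322254-74350280 (Sdha), chrX:52988137-53021659 (Hprt), chr5:129989011-130003049 (Gusb) and chr17:15499888-15528379 (Tbp). All printed windows are the 3' end of the last exon, which spans 340 bases in Ppia and 11676 bases in Tbp. The last exon of Tbp overlaps Pdcd2, a gene on the opposite strand, and no other last exon overlaps an annotated gene. GC content over the last 300 bases was 28.7% in Hprt and 41.7% to 47.0% in the other 6 genes, against a median of 42.33% for protein-coding genes. In a search of these 300 bases against all annotated transcripts, with alignments of at least 100 bases at 97% identity, only Ppia matched another gene, the noncoding Gm17494. Gm17494 had no row in the count table, so reads shared with it cannot be followed here.

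The reference genes ranged widely in abundance. Mean levels over the 24 libraries, in CPM (counts relative to the library total after TMM scaling, a trimmed-mean correction for library composition), fell in the order Actb 2453, Ppia 914, Ywhaz 586, Sdha 428, Hprt 271, Gusb 25.7 and Tbp 22.7 CPM. Actb, which encodes cytoplasmic beta-actin, ranged from 1715 to 3282 CPM, and its lowest library lay above the highest of any other member. Of the neighbours in this order, Ppia and Ywhaz, Sdha and Hprt, and Gusb and Tbp had overlapping ranges over the libraries, and the ratio of Gusb to Tbp counts ran from 0.590 to 1.71. Per kilobase of the deposited gene length the order of the levels was Actb 1277, Ppia 781, Hprt 211, Ywhaz 170, Sdha 148, Gusb 6.82 and Tbp 1.73 CPM per kb. Each cDNA is read near its 3' end in this method, so the length correction divides by bases that give few reads, and it is largest for Tbp, with a deposited length of 13091 bases.

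**Figure D1:**
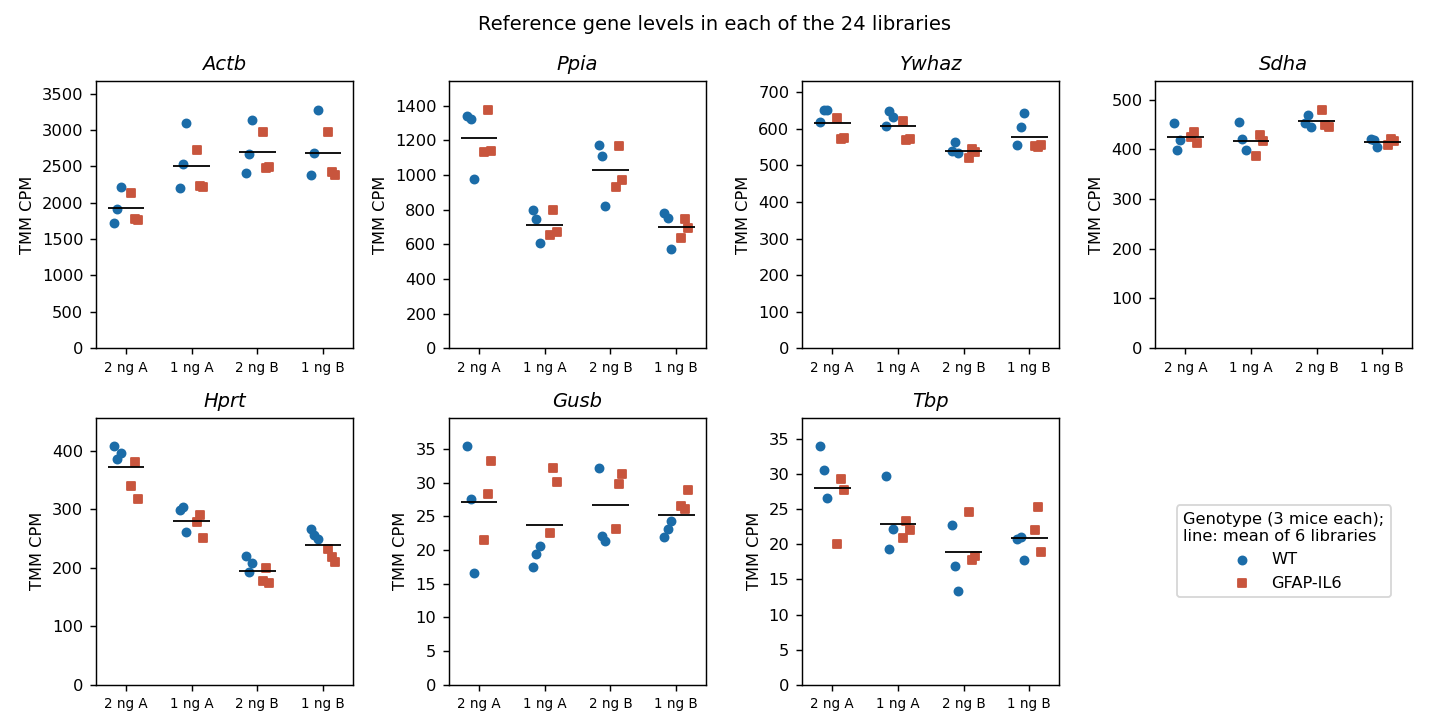
TMM-scaled CPM (vertical axes, from 0) of the 7 reference genes in the 24 libraries, by preparation (cDNA amount and set, horizontal axes). Blue circles are WT and red squares GFAP-IL6 mice, and the black lines are means of 6 libraries. Hprt falls from a mean of 371 CPM in the 2 ng libraries of set A to 195 CPM in those of set B, while Sdha stays between 386 and 480 CPM in every library.

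The first question was whether the reference genes differed between genotypes. None of the 7 was called with the 4 libraries of each mouse summed, at a Benjamini-Hochberg adjusted p under 0.05 in edgeR's quasi-likelihood test, where 1.8% of 14621 genes were called. None had an unadjusted p under 0.05, which 1279 of 14621 genes had, and DESeq2 called none of them. No member passed the stricter rule that adds an absolute log2 fold change above 1, which 1.23% of genes passed. In bulk tissue a difference in the number of cells of a type cannot be told apart from a difference in RNA per cell.

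Sdha, a flavoprotein subunit of succinate dehydrogenase in the citric acid cycle and respiratory chain, had the narrowest range over the 6 mice relative to its level. It measured 442, 426 and 413 CPM in WT mice 1 to 3 and 421, 430 and 422 CPM in GFAP-IL6 mice 1 to 3. The groups overlapped, and the log2 difference, GFAP-IL6 minus WT, was -0.0090 ± 0.079 (SE, adjusted p = 0.994). Ppia, the peptidyl-prolyl isomerase cyclophilin A, measured 987, 944 and 710 CPM in WT and 808, 982 and 842 CPM in GFAP-IL6 mice. Its WT mouse 3 was the lowest of all, and the log2 difference was -0.0054 ± 0.12 (SE, adjusted p = 0.998). Tbp, the TATA-binding protein of the general transcription machinery, measured 26.0, 21.6 and 19.8 CPM in WT and 21.8, 23.97 and 21.4 CPM in GFAP-IL6 mice. The WT range enclosed the GFAP-IL6 values, at a log2 difference of -0.019 ± 0.12 (SE, adjusted p = 0.990).

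Hprt was the only member whose mice did not overlap between genotypes. Hprt encodes the purine salvage enzyme hypoxanthine phosphoribosyltransferase and lies on the X chromosome. It measured 294, 281 and 273 CPM in WT and 256, 267 and 236 CPM in GFAP-IL6 mice, that is 282 ± 10.6 against 253 ± 15.5 CPM (SD, n = 3 mice each). Every WT mouse lay above every GFAP-IL6 mouse, with a log2 difference of -0.16 ± 0.082 (SE), which did not pass the edgeR test (adjusted p = 0.628). Such separation was seen in 14.4% of all tested genes, so 1 of 7 members is near the background.

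Gusb, a lysosomal glucuronidase, had the largest fitted difference of the 7. Its levels were 25.8, 22.9 and 21.2 CPM in WT and 23.7, 28.8 and 30.6 CPM in GFAP-IL6 mice. The groups overlapped through WT mouse 1 and GFAP-IL6 mouse 1, and the log2 difference was 0.25 ± 0.12 (SE, edgeR adjusted p = 0.585). In the same direction as Gusb, 3 marker lists were higher in sum in every GFAP-IL6 mouse than in every WT mouse. They were microglia and macrophage markers, astrocyte markers (2889 to 2979 CPM in WT and 3254 to 3455 CPM in GFAP-IL6, 1 of 7 called, Gfap) and endothelial markers (25.3 to 30.7 CPM and 38.5 to 48.7 CPM, 1 of 5 called, Flt1). Their part in the Gusb values was not tested. Ywhaz, which encodes the adaptor protein 14-3-3 zeta, measured 578, 617 and 621 CPM in WT and 581, 557 and 560 CPM in GFAP-IL6 mice. WT mouse 1 fell within the GFAP-IL6 range, and the log2 difference was -0.097 ± 0.080 (SE, adjusted p = 0.833). Actb measured 2201, 2482 and 2994 CPM in WT and 2732, 2239 and 2230 CPM in GFAP-IL6 mice. WT mouse 3 was the highest and WT mouse 1 the lowest of the 6, and the log2 difference was -0.092 ± 0.12 (SE, adjusted p = 0.905).

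Within single preparations, 0 members were called between genotypes in any of the 4. The background was 1.03% of genes in the 2 ng libraries of set A, 1.1% in the 1 ng libraries of set A, 1.08% in the 2 ng libraries of set B and 1.08% in the 1 ng libraries of set B. Unadjusted p-values under 0.05 occurred for Gusb in the 1 ng libraries of set A, with a log2 difference of 0.61 ± 0.18 (SE, edgeR adjusted p = 0.155), and for Hprt in the 1 ng libraries of set B, at -0.23 ± 0.092 (SE, adjusted p = 0.560). Over all genes, 911 of 12407 and 905 of 12974 had such a p in these preparations. In the 2 ng libraries of sets A and B it was 925 of 12190 and 828 of 12233. DESeq2 called no member in any preparation. Without GFAP-IL6 mouse 1, Gusb in the 1 ng libraries of set A reached an adjusted p of 0.0469 at a log2 difference of 0.72. In the other 3 preparations the Gusb difference was 0.035, 0.15 and 0.25. No gene of 12146, and so no member, was called for a genotype effect that differed between amounts (0%) or between sets (0%), while 368 and 858 genes had an unadjusted p under 0.05. Actb and Gusb were among the former, with differences of 0.060 and -0.33 on the log2 scale (adjusted p = 0.9999 for both), and no other tool was run on these terms.

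The second question was whether the levels changed with the amount of cDNA tagmented. The main fits for amounts and sets held genotype but no mouse block, so their SEs ignore the pairing of libraries within a mouse. Fits with the mouse as a block are given beside them. In set A, 3 of the 7 members were called between 2 ng and 1 ng, against 17.4% of all genes. Ppia was higher with 2 ng. Its lowest, median and highest levels over 6 libraries were 980, 1231 and 1378 CPM with 2 ng, and 608, 709 and 801 CPM with 1 ng. The groups did not overlap, every mouse showed the difference, and the log2 difference was 0.75 ± 0.080 (SE, edgeR adjusted p = 5.7e-08). Hprt was also higher with 2 ng, at 318, 383 and 407 CPM against 250, 284 and 303 CPM. Its groups did not overlap either, and the log2 difference was 0.38 ± 0.065 (SE, adjusted p = 7.8e-05).

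Actb moved the other way in set A. It ran from 1715 through a median of 1851 to 2224 CPM with 2 ng, and from 2204 through 2377 to 3101 CPM with 1 ng. The ranges overlapped between 2204 and 2224 CPM, all 6 mice were lower with 2 ng, and the log2 difference was -0.40 ± 0.079 (SE, edgeR adjusted p = 0.00052). Sdha and Ywhaz differed by 0.0015 ± 0.059 and 0.00029 ± 0.056 on the log2 scale (SE, adjusted p = 0.992 and 0.999). Tbp ran from 19.99 to 33.9 CPM with 2 ng and 19.3 to 29.7 CPM with 1 ng, and Gusb from 16.6 to 35.4 CPM and 17.5 to 32.2 CPM. Tbp was not called, at 0.29 ± 0.12 (SE, adjusted p = 0.111), but was with the mouse as a block (adjusted p = 0.0162), where 4 members and 30.9% of all genes were called. Gusb was not called, at 0.22 ± 0.15 (SE, adjusted p = 0.363).

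In set B, 2 of the 7 members were called, against 6.14% of all genes, and Ppia was again higher with 2 ng. It measured 819, 1041 and 1173 CPM (lowest, median and highest) with 2 ng and 574, 722 and 784 CPM with 1 ng. The groups did not overlap, and the log2 difference was 0.56 ± 0.085 (SE, edgeR adjusted p = 7.5e-05). Hprt changed direction relative to set A, at 174, 196 and 219 CPM with 2 ng against 211, 241 and 267 CPM with 1 ng. All 6 mice were lower with 2 ng, the ranges overlapped, and the log2 difference was -0.29 ± 0.061 (SE, adjusted p = 0.0033). Actb did not pass, with 2416 to 3141 CPM against 2379 to 3282 CPM and a log2 difference of 0.0059 ± 0.081 (SE, adjusted p = 0.985). With the mouse as a block 4 members were called in set B, against 20.6% of all genes, the other two being Sdha, at 0.13 (adjusted p = 2.0e-05), and Ywhaz, at -0.077 (adjusted p = 0.0090). DESeq2, without the block, called 3 members and 904 of 12544 genes.

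A simpler rule took the direction of the TMM-scaled CPM in each mouse. Mice that share a pooled reaction would move together, so the mice are not independent repeats of an amount here. In set A, Actb, Ywhaz, Hprt and Ppia moved in 1 direction in all 6 mice, 4 of 7 members, against 26.7% of genes. In set B it was Ywhaz, Hprt, Ppia and Sdha, again 4 of 7, against 19.5% of genes. For Ywhaz the mean change was small, with ratios of 2 ng to 1 ng of 1.004 to 1.03 over the mice in set A and 0.828 to 0.992 in set B. In set A the fitted difference of Ywhaz was negative with some other scalings and filters and with the mouse block. Its place in the count for set A therefore rests on the scaling used. Hemoglobin genes, the red cell markers, were lower with 2 ng for 4 of the 5 list members in each set, with medians of -1.57 and -1.05 on the log2 scale. The part of red cell RNA and of depth in the differences between amounts was not tested.

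The last of these questions was whether sets A and B gave the same levels. At 2 ng, 5 of the 7 members were called, against 20.4% of all genes. Hprt was the most affected, at 318, 383 and 407 CPM (lowest, median and highest) in set A and 174, 196 and 219 CPM in set B. The groups lay apart by more than either range, every mouse fell, and the log2 difference, B minus A, was -0.93 ± 0.065 (SE, edgeR adjusted p = 1.6e-11). The ratio of B to A was 0.499 to 0.546 over the 6 mice. Actb was higher in set B, at 1715, 1851 and 2224 CPM in A and 2416, 2584 and 3141 CPM in B. These groups did not overlap, and the ratio was 1.39 to 1.42 in all mice, with a log2 difference of 0.49 ± 0.074 (SE, adjusted p = 1.5e-05).

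Tbp fell from 19.99, 28.5 and 33.9 CPM to 13.4, 18.0 and 24.6 CPM, with 5 of 6 mice lower and overlapping ranges. Its log2 difference was -0.58 ± 0.13 (SE, edgeR adjusted p = 0.0021), on counts as low as 20 reads. Ywhaz fell from 573, 625 and 653 CPM to 520, 539 and 565 CPM. Its groups did not overlap, and the log2 difference was -0.19 ± 0.057 (SE, adjusted p = 0.0168). Ppia fell from 980, 1231 and 1378 CPM to 819, 1041 and 1173 CPM, in every mouse but with overlapping groups, and the log2 difference was -0.24 ± 0.085 (SE, adjusted p = 0.0415). The calls of Ywhaz and Ppia were lost when WT mouse 2 was left out (adjusted p = 0.0664 and 0.108). The call of Ywhaz was also lost without WT mouse 3 (adjusted p = 0.0510). The call of Ppia was also lost without WT mouse 1 or any of the 3 GFAP-IL6 mice (adjusted p from 0.0514 to 0.0944). With DESeq2, with its size factors in edgeR, and with at least 10 counts in every library, 4 members were called and Ppia was not (adjusted p = 0.0779, 0.0534 and 0.0538). With no filter 4 were called and Ywhaz was not (adjusted p = 0.0702). Scaling by the geometric mean of the 7 members lost both (adjusted p = 0.998 for Ywhaz and 0.663 for Ppia) and called Sdha (adjusted p = 0.0018). That scaling fixes the mean log2 level of the 7 in each library, so a change in 1 member shifts the others. It is therefore no separate check of these calls.

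Sdha was not called with TMM, at 0.10 ± 0.058 (SE, adjusted p = 0.225), but was with the mouse as a block (adjusted p = 0.0079), where 6 members and 33% of all genes were called. Gusb was not called either, at -0.053 ± 0.14 (SE, adjusted p = 0.833), with 16.6 to 35.4 CPM in set A and 21.4 to 32.2 CPM in set B. In the direct count 5 members, Actb, Ppia, Ywhaz, Hprt and Sdha, moved in 1 direction in every mouse, against 27.2% of genes.

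At 1 ng the sets differed less. None of the 7 members was called in the fit without a mouse block, against 0.718% of all genes. In that fit 1 member had an unadjusted p under 0.05, as did 1085 of 12816 genes. That member was Hprt, at 250, 284 and 303 CPM in set A and 211, 241 and 267 CPM in set B. The groups overlapped, all 6 mice fell, and the log2 difference was -0.24 ± 0.063 (SE, edgeR adjusted p = 0.0799). DESeq2 called Hprt here (adjusted p = 0.0108). The fit without WT mouse 3 also called it (adjusted p = 0.0348). With the mouse as a block 3 members were called, against 5.44% of all genes, Hprt at -0.25 (adjusted p = 2.1e-08), Actb at 0.10 (adjusted p = 9.2e-10) and Ywhaz at -0.080 (adjusted p = 0.0245). In 2 of 7 members, Actb and Hprt, all mice moved in 1 direction, against 9.23% of genes.

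The difference between sets was not the same at 2 ng and 1 ng for 5 of the 7 members, against 12.1% of all genes. These calls came from 1 model over all libraries with the mouse as a block. If each preparation was a pooled reaction, this term cannot be told apart from variation between reactions. Hprt had the largest such difference: its set effect at 2 ng minus that at 1 ng was -0.68 ± 0.049 on the log2 scale (SE, edgeR adjusted p = 4.0e-26). Actb differed by 0.38 ± 0.022 (SE, adjusted p = 1.1e-34) and Ppia by -0.21 ± 0.030 (SE, adjusted p = 4.3e-09). Tbp differed by -0.46 ± 0.16 (SE, adjusted p = 0.0360) and Sdha by 0.12 ± 0.040 (SE, adjusted p = 0.0314). Ywhaz and Gusb did not pass, at -0.097 and -0.12 (adjusted p = 0.0528 and 0.712).

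**Figure D2:**
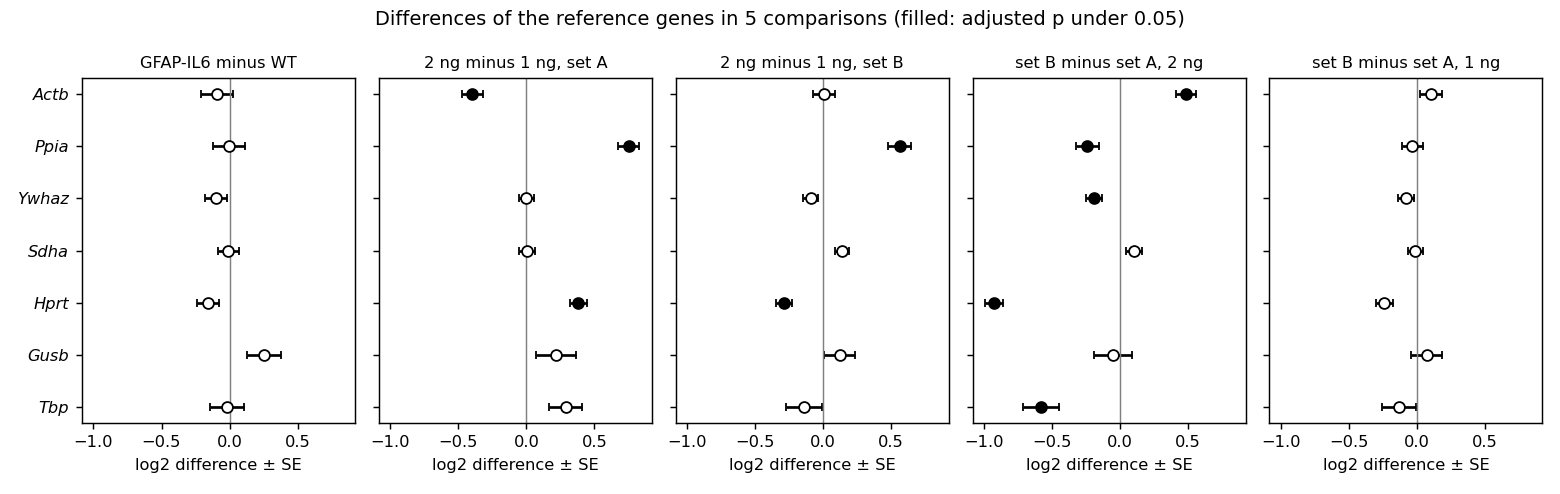
Log2 differences (horizontal axes, with SE derived from the edgeR test statistic) of the 7 reference genes in 5 comparisons. Filled points have an adjusted p under 0.05 in the fit without a mouse block. No point is filled between genotypes or between sets at 1 ng, 3 and 2 are filled between amounts in sets A and B, and 5 are filled between sets at 2 ng.

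The spread over all 24 libraries ranked the members differently from the genotype comparison. The SD of log2(CPM + 1) was 0.078 for Sdha, 0.10 for Ywhaz, 0.26 for Actb, 0.29 for Gusb, 0.30 for Tbp, 0.37 for Hprt and 0.39 for Ppia. The highest library exceeded the lowest by 1.24-fold in Sdha and 1.25-fold in Ywhaz, and by 2.13-fold to 2.54-fold in Gusb, Hprt, Ppia and Tbp. The median SD of the members was 0.288, beside a median of 0.268 for the 12146 genes tested and 0.160 for the 1893 of them with a mean of at least 100 CPM. Only 0.0988% of tested genes had a smaller SD than Sdha, and 1.30% had a smaller SD than Ywhaz, whereas 78.5% had a smaller one than Ppia. Read counting alone would give an SD of 0.16 for Gusb and 0.17 for Tbp, with 25 to 361 and 20 to 236 reads per library, but 0.027 for Ppia and 0.048 for Hprt.

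The source of the spread also differed between members. The preparation took 89.1% of the sum of squares of Hprt, 80.5% of Ppia, 60.1% of Actb, 53.5% of Ywhaz, 52.1% of Sdha, 46.6% of Tbp and 6.45% of Gusb, against a median of 23.3% for tested genes and 41.3% for those of at least 100 CPM. Genotype took at most 20.2%, in Ywhaz, with 19.9% in Gusb and 5.45% in Hprt. It took 2.15% in Actb, 0.32% in Sdha, 0.0053% in Ppia and 0.0051% in Tbp. The median for genotype was 3.56% for tested genes and 3.96% for those of at least 100 CPM. The mouse, genotype included, took 47.6% in Gusb, 39.1% in Actb and 8.35% to 30.6% in the other 5 members. In the summed libraries WT mouse 3, the shallowest mouse, was the highest for Actb and Ywhaz and the lowest for Ppia, Sdha, Gusb and Tbp. Gusb had 46.0% left unassigned to preparation or mouse.

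**Figure D3:**
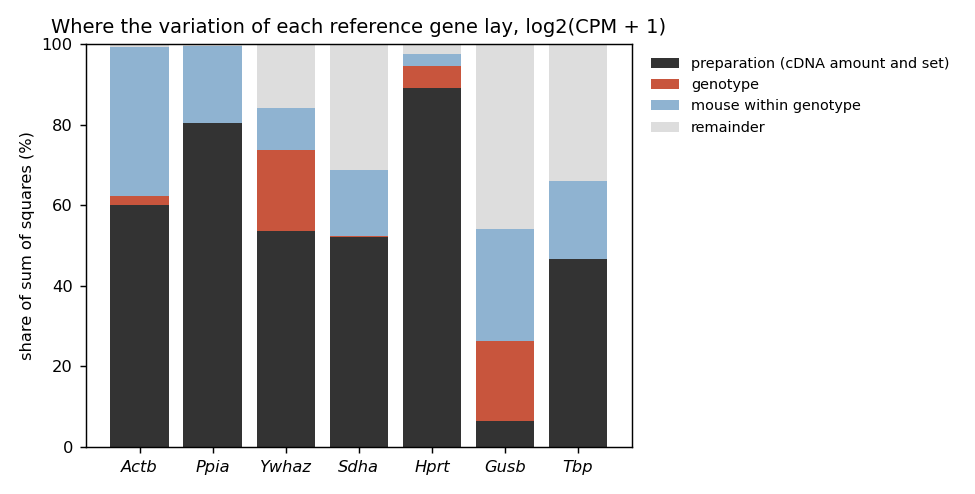
Share of the sum of squares of log2(CPM + 1) over 24 libraries (vertical axis, percent) taken by preparation, genotype, mouse within genotype and the remainder, for each reference gene. Preparation takes 89.1% in Hprt and 6.45% in Gusb.

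Ratios of 2 reference genes in a library need no scaling. Over the 21 pairs the SD of the log2 ratio was smallest for Ywhaz to Sdha, at 0.16, and this ratio of counts ran from 1.08 to 1.63. Its mean over the 6 mice was 1.46 in the 2 ng and 1.46 in the 1 ng libraries of set A, 1.18 in the 2 ng libraries of set B and 1.39 in the 1 ng libraries of set B. The ratio of Actb to Ppia varied most, with an SD of 0.60 and values from 1.28 in a 2 ng library of set A (WT mouse 1) to 5.72 in a 1 ng library of set B (WT mouse 3). Between genotypes the exact permutation test of 3 against 3 mice cannot give a two-sided p below 0.1, so no pair could be called. That p was reached by 3 of the 21 pairs (smallest adjusted p = 0.63). They were Hprt to Sdha, Hprt to Gusb and Ppia to Gusb, with log2 differences of -0.16, -0.43 and -0.27, GFAP-IL6 minus WT. Between 2 ng and 1 ng, 12 of the 21 pairs in each set reached 0.03125 in the exact two-sided test. That is the smallest p that 6 sign flips allow, and after adjustment over the 21 pairs the smallest adjusted p was 0.0547. Mice that share a pooled reaction would shift together, so this test cannot tell the amount from the reaction.

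The geNorm measure M, the mean SD of the log2 ratios of a gene to the other members, gave the same 2 genes the lowest values. Over the 24 libraries M was 0.304 for Ywhaz, 0.305 for Sdha, 0.371 for Tbp, 0.403 for Gusb, 0.416 for Hprt, 0.434 for Ppia and 0.460 for Actb, with a mean of 0.385. Stepwise exclusion of the gene with the highest M removed Actb, then Ppia, Gusb, Hprt and Tbp, leaving Ywhaz and Sdha. Within single preparations the mean M was lower, at 0.270, 0.261, 0.255 and 0.208. Hprt moved up the order there, to rank 2 of 7 in both preparations of set A and rank 3 in those of set B. Gusb was last in both preparations of set A, Tbp in the 2 ng and Actb in the 1 ng libraries of set B.

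**Figure D4:**
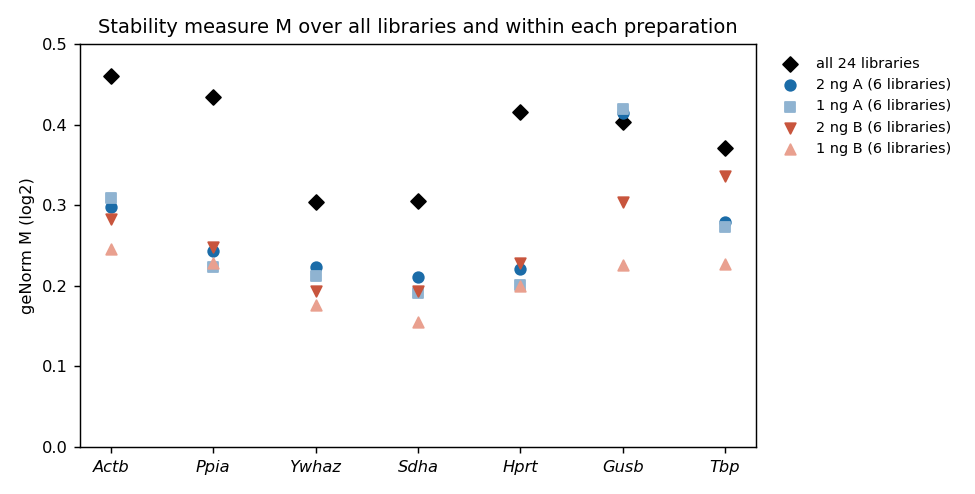
geNorm M (vertical axis, log2 units, from 0; lower is steadier) of each reference gene over all 24 libraries (black diamonds) and within each preparation of 6 libraries. Hprt lies at 0.416 over all libraries and at 0.200 to 0.228 within preparations.

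Dividing a target by each reference gene in turn shifts every target by the same amounts on the log2 scale, which were set against a large and a small genotype difference. Gfap, the astrocyte filament gene whose promoter drives the transgene, measured 20.3, 23.5 and 16.0 CPM in WT and 80.8, 102 and 146 CPM in GFAP-IL6 mice, and the groups did not overlap. With TMM scaling this was a 5.40-fold difference of the mean log2 levels. The log2 difference fitted by edgeR was 2.44 ± 0.18 (SE, adjusted p = 1.6e-06). Divided by a single member it was 4.56-fold with Gusb, 5.38-fold with Ppia, 5.39-fold with Tbp, 5.43-fold with Sdha, 5.73-fold with Actb, 5.77-fold with Ywhaz and 6.03-fold with Hprt. The groups did not overlap with any reference, and every exact permutation test gave p = 0.1, the smallest that 3 against 3 mice allow.

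Apoe, a lipid carrier of astrocytes and microglia, measured 4990, 5197 and 4763 CPM in WT and 5682, 6099 and 6755 CPM in GFAP-IL6 mice. With TMM scaling the groups did not overlap, at a 1.24-fold difference that was not called (edgeR adjusted p = 0.129). It was 1.04-fold over Gusb (exact permutation p = 0.7), 1.23-fold over Ppia (p = 0.2), 1.24-fold over Tbp and over Sdha (p = 0.1 each), 1.31-fold over Actb (p = 0.3), 1.32-fold over Ywhaz (p = 0.1) and 1.38-fold over Hprt (p = 0.1). On the log2 scale the references placed Gfap between 2.19 and 2.59 and Apoe between 0.063 and 0.47. The mice of the 2 genotypes overlapped when Apoe was divided by Gusb, Ppia or Actb. The geometric mean of the 7 members gave 5.45-fold for Gfap and 1.25-fold for Apoe.

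**Figure D5:**
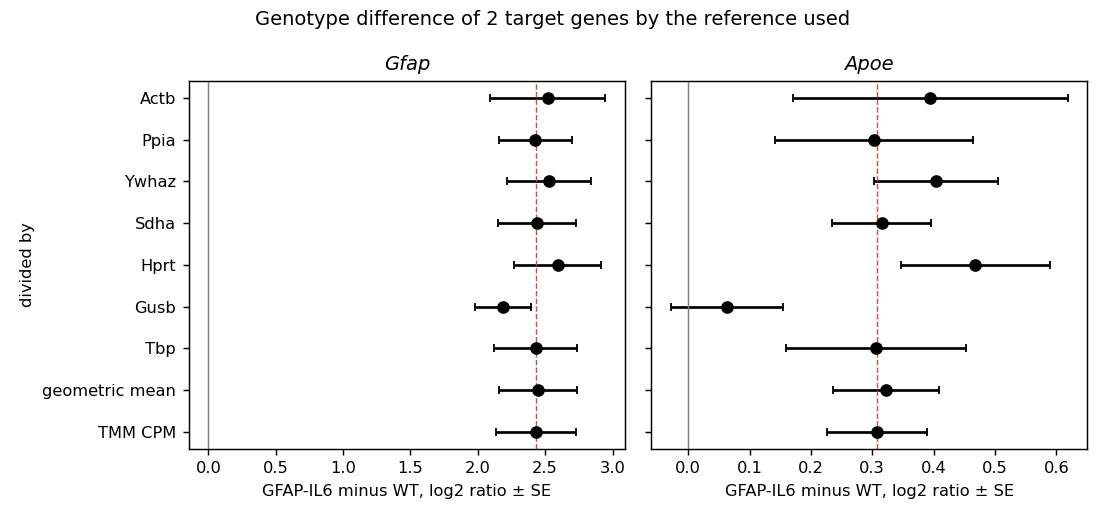
GFAP-IL6 minus WT log2 ratio (horizontal axes, ± SE over 3 mice a group) of Gfap and Apoe after division by each reference gene, by the geometric mean of the 7, or with TMM-scaled CPM (dashed line). The folds run from 4.56 to 6.03 for Gfap and from 1.04 to 1.38 for Apoe.

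A wider list of 22 other reference genes placed the 7 in context. Between genotypes 1 of the 22 was called, against 1.8% of all genes. It was B2m, the light chain of MHC class I, at 354 ± 5.42 CPM in WT and 525 ± 78.7 CPM in GFAP-IL6 mice (SD, n = 3 mice each). Its log2 difference was 0.57 ± 0.10 (SE, edgeR adjusted p = 0.0061). Between 2 ng and 1 ng, 9 of the 22 were called in set A and 6 in set B, against 17.4% and 6.14% of all genes. Between sets 5 were called at 2 ng and 0 at 1 ng, against 20.4% and 0.718% of all genes. The smallest SDs over the 24 libraries were those of Tubb5 (a beta-tubulin, 0.081), Cyc1 (cytochrome c1, 0.11) and Ppib (cyclophilin B, 0.11), all above that of Sdha. The largest were those of the glycolytic enzyme gene Pgk1 (0.71), the elongation factor gene Eef1a1 (0.53) and the initiation factor gene Eif4a2 (0.50), and preparation took 89.7%, 74.8% and 96.9% of their sums of squares.

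Among the 12146 genes that passed the filter on low counts over all libraries, the 5 with the smallest SD were Fis1 (0.059), Pja2 (0.063), Sfr1 (0.064), Nefl (0.066) and Rab6a (0.066), with means from 194 to 914 CPM. By the SD of the log2 ratio over the 24 libraries, the tested gene most like each member was Map1a for Actb (0.097), Tma7 for Ppia (0.13), Atp6v1a for Ywhaz (0.077), Pfkp for Sdha (0.067), Ndfip2 for Hprt (0.11), Speg for Gusb (0.22) and Dld for Tbp (0.17). These pairs are descriptions of 24 libraries from 6 mice.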

How the data were processed

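The authors trimmed polyA stretches, aligned reads with STAR 2.4 to mm10, and counted uniquely aligned reads on GENCODE vM6 genes with featureCounts; the submitters' processing notes name another build, hg19. They deposited raw counts per gene and library with no normalization, and the length of each gene. Samples were grouped by their labels. The members, the gene lists and the tests were chosen with earlier results of these data known. Named genes were the 7 members, Gfap and Apoe, other reference genes called between genotypes or with the 3 smallest or 3 largest SDs, the 5 steadiest genes of the table, and the gene most like each member.

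Genotypes were compared on the summed libraries of each mouse, and in each preparation, with edgeR 4.0.16 in R 4.3.3 (TMM, filterByExpr, quasi-likelihood test, Benjamini-Hochberg adjustment over all tested genes). Amounts and sets were compared with genotype as a covariate. The test gives no SE, so the SE of an edgeR difference is its absolute log2 value over the square root of the F statistic. DESeq2 1.42.0, other scalings and filters, leave-one-out fits and the mouse as a block were alternatives. Pairing of the 4 libraries follows from the shared animal, and their deviations from group means correlated at 0.22 to 0.594 over 36 pairs. WT and GFAP-IL6 mice of the same number did not (-0.064 to 0.0022), so the numbers do not pair the genotypes. Levels used a pseudocount of 1 CPM. Transcript ends came from GENCODE vM21, and copies from BLAST+ 2.17.0. The scripts were tested on simulated data. Reads have no molecular identifiers.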

Additional observations from a re-analysis of the deposited data

Results flagged for a closer look

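For 5 reference genes the difference between sets B and A itself differed between 2 ng and 1 ng of cDNA, by the interaction term of 1 edgeR model over all 24 libraries with the mouse as a block. The difference of the log2 effects, 2 ng minus 1 ng, was -0.68 for Hprt, -0.46 for Tbp, 0.38 for Actb, -0.21 for Ppia and 0.12 for Sdha. The cause was not tested, and the amount cannot be told apart from variation between pooled reactions.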

How the results depend on the processing

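Each comparison was repeated with DESeq2 or its size factors, library totals, the geometric mean of the 7 reference genes, other filters, the mouse or mouse number as a block, and each mouse left out. The geometric mean is formed from the members themselves, so their values under it are tied to each other and give no separate check. The counts that follow include them. Of the values for single members and targets, 668 kept their direction and side of the threshold or stayed within their spread, 13 lost a call, 12 gained one and 42 changed sign. All sign changes were in values that no fit called. No called member changed direction in any alternative, the lost calls were those of Ywhaz and Ppia between sets at 2 ng, and the SD of Actb fell to 0.24 with library totals and 0.23 without WT mouse 3. The depth limits Gusb and Tbp most. With every library thinned to 1524165 counts the median SD of the members was 0.343 against 0.288.

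Scaling by the geometric mean of the 7 members moved the median of all genes by -0.17 between amounts in set A, with 408 genes higher and 2773 lower against 1089 and 1110 with TMM, and by 0.20 between sets at 2 ng, with 3469 higher and 653 lower (4122 in all) against 934 and 1608. Library totals gave 1460 and 821 between amounts in set A.

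Without a filter, 462 genes were called between genotypes in the summed libraries, against 263, and 199, 214, 200 and 228 in the 2 ng and 1 ng libraries of set A and of set B. With at least 10 counts in every library, 79 and 72 were called in the 2 ng libraries of sets A and B. Leaving out a mouse gave 146 to 321 genes in the summed libraries, 57 to 141 and 62 to 169 in set A, 59 to 160 and 54 to 162 in set B, 481 to 803 between amounts in set B and 43 to 104 between sets at 1 ng. The lowest values for genotype came without GFAP-IL6 mouse 3, the deepest mouse. They came without WT mouse 2 for amounts in set B and without GFAP-IL6 mouse 2 for sets at 1 ng. Counts also fell by more than 1.5 times in the 2 ng and 1 ng libraries of set B without WT mouse 2 (83 and 79), in the 1 ng libraries of set B without GFAP-IL6 mouse 2 (77), between amounts in set B without GFAP-IL6 mouse 3 (511), and between sets at 1 ng without WT mouse 1 (61), WT mouse 2 (46) or GFAP-IL6 mouse 3 (48). Leaving out a mouse gave 0 to 1 called member in the 1 ng libraries of set A between genotypes, 3 to 4 between sets at 2 ng and 0 to 1 at 1 ng. The single member was Gusb, without GFAP-IL6 mouse 1, in the former and Hprt, without WT mouse 3, at 1 ng, and the count of 3 came without WT mouse 2. DESeq2 called 162 genes and 1 member between sets at 1 ng.

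With the mouse as a block, 3902 genes were called between amounts in set A, 2586 in set B with 4 members, 4117 between sets at 2 ng and 697 at 1 ng with 3 members. Blocking the mouse numbers between genotypes gave 83 genes in the 2 ng libraries of set B. It changed no call of a member between genotypes. The interaction terms were run in 1 fit alone. Same-numbered mice of the 2 genotypes are separate animals, so that block rests on the number alone.

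The sign changes between genotypes in the summed libraries were small. Tbp was at 0.0098 with library totals, 0.0031 with the geometric mean, 0.0045 with the block and -0.087 to 0.10 without a mouse. Sdha was at 0.021, 0.0064 and, without a mouse, -0.029 to 0.017. Ppia was at 0.023, 0.012, 0.00083 with at least 10 counts, 0.0050 with the block and -0.13 to 0.084 without a mouse. Actb was at -0.20 to 0.039 without a mouse, and Gusb in the 2 ng libraries of set A at -0.13 to 0.29. Between amounts in set A, Sdha was at -0.0041 with DESeq2, -0.0020 with its size factors, -0.17 with the geometric mean, -0.0080 without a filter, -0.00064 with at least 10 counts, -0.011 with the block and -0.020 to 0.022 without a mouse. Ywhaz was at -0.0043, -0.0033, -0.17, -0.0089, -0.0019, -0.0028 and -0.0080 to 0.0039 in the same order. Between amounts in set B, Actb was at -0.020 with the geometric mean, -0.0034 without a filter and -0.0037 to 0.021 without a mouse. With the geometric mean Gusb was at 0.15 between sets at 2 ng, and Sdha and Ppia at 0.028 and 0.0077 at 1 ng, where Sdha ran from -0.027 to 0.0086 without a mouse. The cause was not tested for any of these.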
